A study of Drosophila melanogaster with 2 samples.

Results

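The nuclear tRNA genes of Drosophila melanogaster were examined for binding of CG6813, a member of the ZAD zinc finger family. They were taken from the BDGP6.54 annotation as every gene on arms X, 2L, 2R, 3L, 3R and 4 whose symbol starts with tRNA:, which leaves out the mitochondrial tRNA genes. The rule gave 295 members of 23973 annotated genes on these arms, transposable elements included, 290 annotated as tRNA and 5 as pseudogenes, and used no ChIP-seq value. The data were ChIP-seq peak lists from whole embryos of mixed sex, aged 0 to 24 h, of the transgenic strain CG6813-GFP, which expresses CG6813 with GFP fused to its C-terminus. The fusion protein was precipitated with an anti-GFP antibody. There was 1 group with 2 biological replicates, numbered 2 and 3, and no untreated or control library was used here, so no comparison of conditions was possible. Whole embryos mix all cell types and stages, and a signal from few cells cannot be told apart from a weak signal in many. The authors' pooled list held 30000 dm6 regions ranked by signal, the peak caller's own value per region, including background, and the thresholded list held the strongest of these regions. Read depth is unknown. A gene was counted as having a peak or region when a summit, the position of highest signal, lay within 500 bp of its annotated start. Offsets are given from the gene start in the direction of the gene, so that negative values are upstream.

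tRNA genes are transcribed by RNA polymerase III from promoters inside the gene. The factor TFIIIC recognises an A box near the start of the tRNA and a B box farther along, and recruits TFIIIB to the DNA just upstream, which in turn places the polymerase. Transcription ends at a run of T after the gene. Many tRNA genes stand in clusters and exist as several copies of identical sequence, and tRNA genes and TFIIIC sites are known as boundary elements in yeast.

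The sequences below show the internal promoters of tRNA genes near thresholded summits, and the less usual case of a summit within the tRNA gene. The first 4 are tRNA genes with a thresholded summit outside the gene, at offsets of -184, -196, 487 and -179 bp in the order printed. They are read 5′ to 3′ on the gene's own strand from the RefSeq assembly of the same build, with matches to the B box letters GTTCNANNC and the A box letters TGGNNNAG in capitals. They are tRNA:Tyr-GTA-1-8 (3R, 8669081 to 8669174, minus strand), tRNA:Leu-TAA-2-1 (3R, 24112964 to 24113047, plus strand), tRNA:Val-CAC-2-5 (3R, 19672277 to 19672349, minus strand) and tRNA:Gln-TTG-2-1 (X, 3427452 to 3427523, minus strand). The last 2 are windows of 200 bases around a thresholded summit inside a tRNA gene, which was so for 5 of the 26 distinct summits described below, on the strand of that gene, with the tRNA in capitals. They lie at tRNA:Ser-AGA-2-4 (2L, 3172945 to 3173144) and tRNA:Gln-TTG-1-3 (3R, 26947423 to 26947622). The sequences at tRNA:Gln-TTG-2-1, tRNA:Ser-AGA-2-4 and tRNA:Gln-TTG-1-3 were chosen after their values were seen. In tRNA:Val-CAC-2-5 and tRNA:Gln-TTG-2-1 the A box letters have no match, so only the B box is marked.
tRNA:Tyr-GTA-1-8: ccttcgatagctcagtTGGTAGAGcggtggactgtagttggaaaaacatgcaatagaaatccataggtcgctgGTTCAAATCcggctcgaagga
tRNA:Leu-TAA-2-1: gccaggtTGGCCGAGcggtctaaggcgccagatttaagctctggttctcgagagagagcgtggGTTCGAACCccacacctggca
tRNA:Val-CAC-2-5: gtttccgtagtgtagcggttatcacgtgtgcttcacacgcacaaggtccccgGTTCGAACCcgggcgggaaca
tRNA:Gln-TTG-2-1: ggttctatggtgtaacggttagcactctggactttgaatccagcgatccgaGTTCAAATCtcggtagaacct
summit at tRNA:Ser-AGA-2-4: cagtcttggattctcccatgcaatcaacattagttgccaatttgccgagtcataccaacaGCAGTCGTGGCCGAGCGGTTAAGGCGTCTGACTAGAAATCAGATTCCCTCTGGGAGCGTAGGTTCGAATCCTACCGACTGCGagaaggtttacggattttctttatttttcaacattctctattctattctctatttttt
summit at tRNA:Gln-TTG-1-3: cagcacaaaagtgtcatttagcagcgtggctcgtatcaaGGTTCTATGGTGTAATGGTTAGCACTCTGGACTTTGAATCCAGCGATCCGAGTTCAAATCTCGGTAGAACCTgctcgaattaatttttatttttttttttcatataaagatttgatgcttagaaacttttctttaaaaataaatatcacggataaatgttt

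Most tRNA genes had a CG6813 region in the pooled list, but few had one strong enough for the thresholded list. A pooled summit lay within 500 bp of 181 of the 295 genes (61.4%, exact 95% binomial interval 55.5 to 66.9%), and a thresholded one within 500 bp of 35 (11.9%, 8.40 to 16.1%). Among the 13945 protein-coding genes, taken by their most 5′ annotated position, the shares were 38.1% for the pooled list and 12.3% for the thresholded list. The thresholded share of tRNA genes was thus near this background, whereas the pooled share was above it. Counted by gene, the pooled excess was mostly in clustered genes, which can share a summit with their neighbours. At the 218 genes with another tRNA gene start within 5000 bp the pooled share was 67.0%. At the 77 isolated genes, with none, it was 45.5% (34.1 to 57.2%), an interval that includes the coding 38.1%. The 146 clustered genes with a pooled summit had 100 distinct nearest summits, and the 35 isolated ones had 35. For thresholded peaks above the list's median signal, the share was 4.41% of tRNA genes (13) and 6.90% of protein-coding genes. A summit in both replicate lists was found at 143 tRNA genes (48.5%), against 28.1% of protein-coding genes. Intervals cover counting error only and treat each gene as independent. Neighbouring tRNA genes share summits and sequences and are not independent, so the intervals can be too narrow. For the same reason the difference was not tested.

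The pooled regions at tRNA genes were mostly below the threshold. Of tRNA genes with a pooled summit, 19.3% had a thresholded one, against 32.3% of such protein-coding genes. The nearest pooled summit had a median signal of 86.0 at tRNA genes (quartiles 68.4 and 133, range 47.9 to 1272) and of 92.7 at protein-coding genes (64.5 and 166). The weakest thresholded peak of the whole list had a signal of 146. The median rank among the 30000 regions of the pooled list was 11203 at tRNA genes and 9887 at protein-coding genes. In replicate 2 the list held a summit at 179 tRNA genes with a median signal of 57.9, and in replicate 3 at 166 with a median of 37.9.

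Which replicate was used mattered for the strong peaks. Among the strongest regions of replicate 3 alone, taken in the same number as the thresholded list, 58 tRNA genes (19.7%) had a summit, against 13.6% of protein-coding genes. With replicate 2 alone, 30 did (10.2%), against 11.8% of protein-coding genes. The share at tRNA genes was therefore above the coding share in replicate 3 and below it in replicate 2.

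Pooled summits lay about evenly on both sides of the tRNA gene start. The nearest one had a median offset of 15.0 bp (quartiles -126 and 103 bp), and 84 of 181 (46.4%) were within 100 bp of the start, against 39.0% at protein-coding genes. At protein-coding genes the median offset was -68.0 bp, and 65.6% of summits were upstream, against 47.5% at tRNA genes. Summits were also counted in bins of 100 bp, once for every gene they lay near. The bin centred on the start held 15.3 pooled summits per 100 tRNA genes and the bin 500 bp upstream 4.75. At isolated tRNA genes, where neighbours add nothing, these bins held 13.0 and 2.60. The tRNA genes themselves, 22390 bp in all, contained 42 pooled and 5 thresholded summits. Thresholded summits lay at a median of -66.0 bp from the start of the 35 genes, and 21 of these genes had theirs upstream. A summit shared by neighbouring genes enters these values once for each gene. The 26 distinct summits had a median offset of -45.5 bp from the nearest tRNA gene start, and 15 were upstream. At protein-coding genes the thresholded median was -112 bp, with 75.7% of summits upstream and 34.1% within 100 bp of the start. Of the 35 tRNA genes, 14 had their summit within 100 bp of the start, but 0 of the 5 isolated genes among them did. The pooled median was -52.5 bp, not 15.0 bp, at the 57 genes whose sequence no other member shares.

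**Figure D1:**
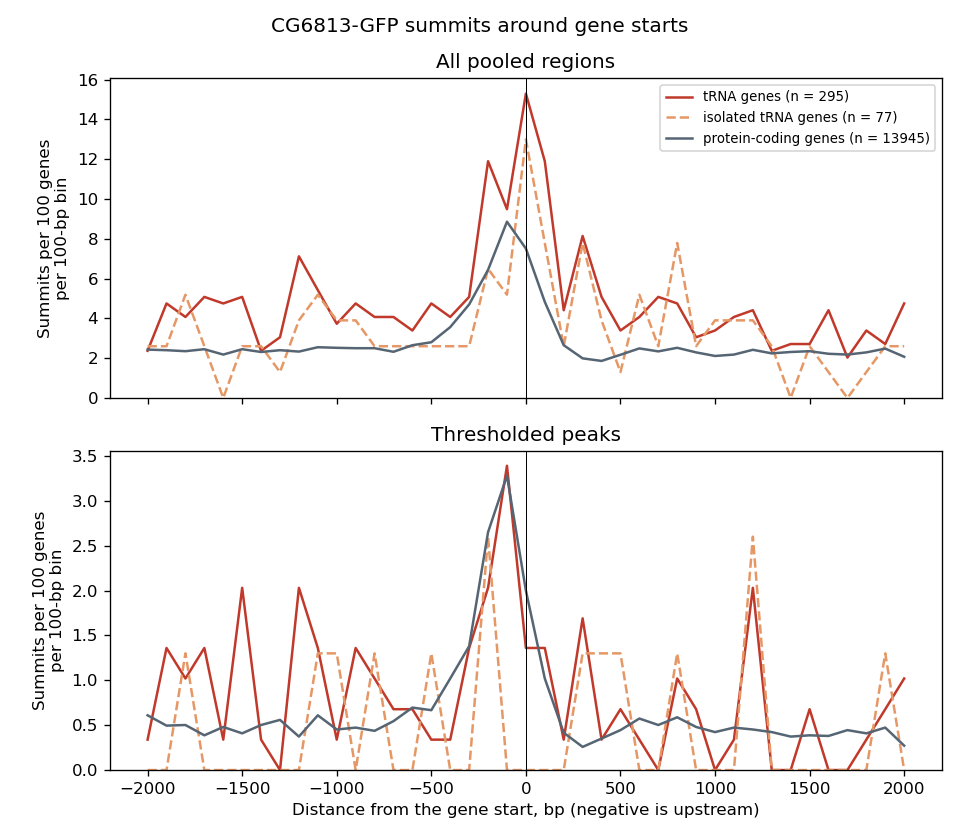
Summits per 100 genes in bins of 100 bp by distance from the gene start in bp (negative is upstream), for tRNA genes, isolated tRNA genes and protein-coding genes, in the pooled list (top) and the thresholded list (bottom). A summit near several genes is counted once for each gene. The pooled tRNA profile is highest in the bin at the start, at 15.3, and the protein-coding profile in the bin 100 bp upstream, at 8.86. Both thresholded profiles are highest in that upstream bin, at 3.39 for tRNA genes and 3.28 for protein-coding genes. The tRNA value there rests on 10 such counts, with some neighbouring genes sharing a summit.

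The 26 distinct thresholded summits within 500 bp of a tRNA gene start fell into those beside a protein-coding promoter and those without one. A protein-coding transcription start site (TSS) lay within 500 bp of 9 summits and of none of the other 17. The first kind had a median signal of 291 (range 151 to 1272) and the second of 186 (154 to 352). All other thresholded peaks had a median of 227. In 22 cases the summit was nearer to a tRNA gene start than to a coding TSS, 10 summits served at least 2 tRNA gene starts, and 5 lay inside a tRNA gene.

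The strongest summits stood where a coding promoter was close. The peak at an offset of -184 bp from tRNA:Tyr-GTA-1-8 (3R, region 8669234 to 8669500) had a pooled signal of 1272, rank 71 of the list. Its signal was 871 in replicate 2 and 394 in replicate 3, with ranks of 79 and 55, so it was strong in both. It lay 260 bp from a TSS of CG8036, and the tRNA gene stands within the spans of CG8036 and p. The other tyrosine genes of the same cluster, tRNA:Tyr-GTA-1-6 and tRNA:Tyr-GTA-1-7, shared a pooled summit with a signal of 63.6, well under the threshold.

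The peak nearest to tRNA:Phe-GAA-1-2 (X, 6744008 to 6744427, signal 595) was the promoter peak of RpL17, a protein of the large ribosomal subunit, with its summit 20 bp from that TSS and 325 bp downstream of the tRNA gene start. Replicate 2 gave it 385 and replicate 3 gave it 202. The peak at tRNA:Val-CAC-2-5 (3R, 19671822 to 19671929, signal 480.2) lay 487 bp downstream of the tRNA gene start and 412 bp from a TSS of Naam, which encodes a nicotinamidase and whose span holds the tRNA gene. The replicate 2 value was 338 and the replicate 3 value 127. At tRNA:Leu-TAA-2-1 (3R, 24112558 to 24112977, signal 369) the summit had an offset of -196 bp and was 379 bp from a TSS of CG13605, with 257 in replicate 2 and 104 in replicate 3. A separate, weak pooled summit lay at an offset of 5 bp from this gene, with a signal of 54.0. None of these 4 summits lay within 100 bp of a tRNA gene start.

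The strongest summit with no coding TSS within 500 bp stood between divergently oriented arginine tRNA genes. Its offset was -153 bp from tRNA:Arg-CCT-1-2 and -298 bp from tRNA:Arg-CCT-1-3 (2R, 20000311 to 20000730), the nearest coding TSS was 4482 bp away, and its pooled signal was 352. Its signal was 198 in replicate 2, rank 1754, and 146 in replicate 3, rank 721. The third gene of the same sequence, tRNA:Arg-CCT-1-1 on 2L, had no summit in any of the 4 lists.

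At tRNA:Thr-AGT-1-2 (2R), inside CG12831, summits stood at offsets of -89 and -337 bp. The nearer one (7070712 to 7071131) had a pooled signal of 252, with 178 in replicate 2 and 62.4 in replicate 3. The farther one had a pooled signal of 157, and its replicate 2 value of 77.4 was 1.03 times that of replicate 3. Near tRNA:Trp-CCA-2-2 (2R) there were likewise 2 summits, the first 6 bp from the TSS of CG30122 (18639066 to 18639485, pooled signal 291) and the second at an offset of -38 bp from the tRNA gene (18639309 to 18639728, 235). The first had signals of 185 in replicate 2 and 101 in replicate 3, and the second of 135 and 98.5. The regions called at these tRNA genes overlap, so their signals are not separate measurements.

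Several summits fell on or next to the tRNA. The summit at tRNA:His-GTG-1-3 (2R, 12334965 to 12335384, signal 232) had an offset of -109 bp and was 141 bp from a TSS of CG8490, with 173 in replicate 2 and 60.8 in replicate 3. Those at tRNA:Ser-CGA-1-4 (2R, 19414458 to 19414877, signal 232), tRNA:Ser-AGA-2-4 (2L, 3172834 to 3173253, 230.2) and tRNA:Asn-GTT-1-3 (2R, 6153315 to 6153734, 219) were inside the tRNA gene, 70, 40 and 54 bp after its start. The first stands in hts, which encodes adducin, and the last in EcR, the ecdysone receptor gene. Their replicate 2 signals were 151, 130.3 and 154 and their replicate 3 signals 81.0, 91.8 and 63.6. The remaining 14 summits had pooled signals of 151 to 208.

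Replicate 2 signal relative to replicate 3 was lower at the tRNA summits than at other thresholded peaks. Each of the 26 had a region within 200 bp of its summit in both replicates. The ratio of replicate 2 to replicate 3 signal had a median of 1.58 at these summits (quartiles 1.36 and 2.37) and of 2.20 at the 4901 other thresholded peaks found in both (1.72 and 2.79). Without a coding TSS within 500 bp, the median was 1.48 at the 17 tRNA summits and 2.23 at 3083 other peaks. At the 9 tRNA summits with a coding TSS it was 1.91. Below the threshold the medians were closer, 1.40 at 69 tRNA summits and 1.53 at 11608 other pooled regions found in both replicates. Of the 26, 18 ranked higher in replicate 3 than in replicate 2, compared with 42.7% of the other peaks. The lowest ratio was 0.896, at tRNA:Gln-TTG-1-3, with 70.5 for replicate 2 and 78.7 for replicate 3, and the highest 3.20, at tRNA:Glu-TTC-1-5. The 2 distributions overlapped widely, and their difference was not tested.

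**Figure D2:**
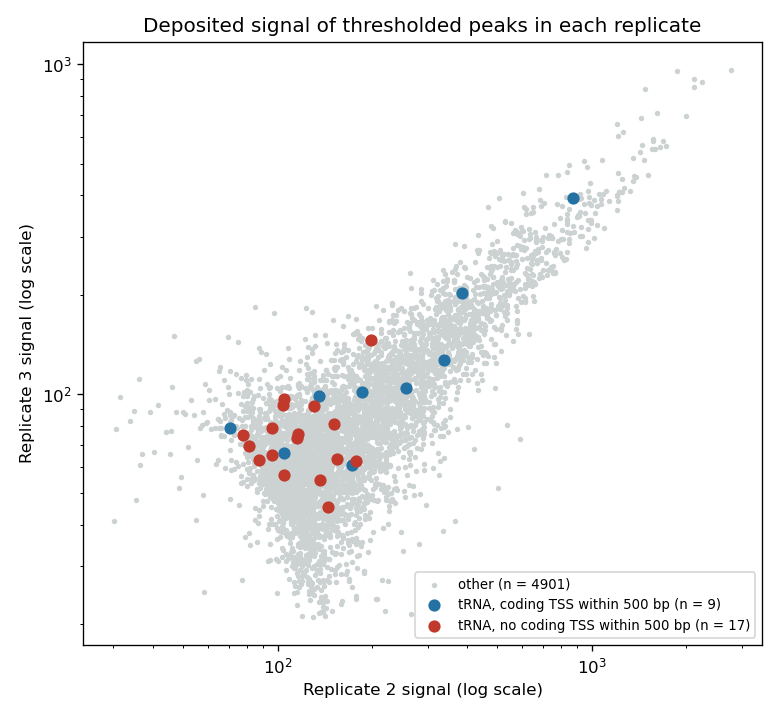
Deposited signal of each thresholded peak in replicate 2 (x axis) and replicate 3 (y axis), both on log scales, with summits at tRNA genes coloured by whether a coding TSS lies within 500 bp. The 17 tRNA summits without a coding TSS have replicate 2 signals between 77.4 and 198 and lie inside the cloud of other peaks.

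tRNA genes close to coding promoters more often had a thresholded peak. Of 33 tRNA genes with a coding TSS within 500 bp of their start, 10 had one (30.3%, interval 15.6 to 48.7%), against 25 of 262 without (9.54%, 6.27 to 13.8%). For pooled summits the shares were 69.7 and 60.3%. Of the tRNA genes, 137 stood wholly within the span of a protein-coding gene, 13 of them with a thresholded peak (9.49%), and 158 stood outside, 22 of them with one (13.9%). Pooled shares were 60.6% inside and 62.0% outside. With summits near any coding TSS left out, a choice made with the values in view, 25 tRNA genes kept a thresholded and 158 a pooled summit.

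Clustered tRNA genes more often had a pooled summit than isolated ones, while for thresholded summits the order depended on arm 2R. Of the 295 genes, 218 had another tRNA gene start within 5000 bp and formed 69 clusters, 39 of them of 2 genes. A pooled summit was present at 146 clustered genes (67.0%, interval 60.3 to 73.2%) and 35 of 77 isolated ones (45.5%, 34.1 to 57.2%). A thresholded one was present at 30 clustered genes (13.8%, 9.48 to 19.1%) and 5 isolated ones (6.49%, 2.14 to 14.5%). On the arms other than 2R the thresholded order was the reverse, with 5 of 138 clustered genes (3.62%) and 4 of 57 isolated ones (7.02%), while the pooled shares were 59.4 and 43.9%. A clustered gene can be reached by a summit at its neighbour. The 30 clustered genes shared 19 nearest summits, while the 5 isolated ones had 5. For pooled summits, the 146 clustered genes shared 100, while the 35 isolated ones had 35. The higher pooled share by gene therefore does not by itself show that clusters hold more regions per gene. Among isolated genes, all 6 whose start was within 500 bp of a coding TSS had a pooled summit and 3 had a thresholded one. Of the other 71, 29 and 2 did. Of these 2, tRNA:Val-CAC-2-5 had its summit, though not its start, near a coding TSS, 412 bp from that of Naam.

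The largest clusters had few thresholded peaks. Clusters of 5 or more genes held 78 genes, 5 with a thresholded peak (6.41%) and 56 with a pooled summit (71.8%). Clusters of 2 to 4 held 140 genes, 25 with a thresholded peak (17.9%) and 90 with a pooled summit (64.3%). In the cluster of 11 Arg, Asn, Ile and Lys genes next to and within EcR (2R, 6161535 to 6171759), 1 thresholded summit, signal 168, lay between tRNA:Lys-CTT-1-5 and tRNA:Arg-ACG-1-4, and 7 genes had a pooled summit. The other cluster of 11, of Ala, Pro, Thr and Val genes (3R, 17617761 to 17631750), had no thresholded summit, though 8 genes had a pooled one, with signals of 55.5 to 128. All 8 genes of the Glu and iMet cluster (2R, 19725620 to 19729353) had a pooled summit, and 1, tRNA:Glu-TTC-1-5, had a thresholded one (signal 179.6). The Thr cluster holding tRNA:Thr-AGT-1-2 and the cluster of tRNA:Trp-CCA-2-2 and tRNA:Gly-GCC-1-9, each of 2 genes, had 2 thresholded summits each, and 17 other clusters had 1.

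Orientation within clusters was described after the data were seen. Of 26 neighbouring tRNA pairs with diverging starts within 1000 bp of each other, 4 had a thresholded summit in the gap between the genes and 13 a pooled one. Of 22 converging pairs the counts were 0 and 6 (27.3%), and of 70 pairs in tandem 1 and 13 (18.6%). Median gaps were 222, 224 and 268 bp. The 4 divergent pairs were tRNA:Lys-CTT-1-5 with tRNA:Arg-ACG-1-4, tRNA:Phe-GAA-1-4 with tRNA:Phe-GAA-1-5 (signal 173), tRNA:Arg-CCT-1-2 with tRNA:Arg-CCT-1-3, and tRNA:Ser-TGA-1-1 with tRNA:Ser-TGA-2-1 (174), all on 2R. Arm 2R held 15 of the 26 diverging pairs, 8 of the 22 converging and 23 of the 70 in tandem. On the other arms no orientation had a thresholded summit in the gap (0 of 11, 0 of 14 and 0 of 47). Pooled counts there were 4 (36.4%), 4 (28.6%) and 6 (12.8%), and on 2R they were 9, 2 and 7. A summit upstream of either gene of a divergent pair can fall in the gap between the genes. The part of this geometry, and of the arm, in the counts was not tested. Without replicate 3 the 4 divergent pairs became 2, and without replicate 2 they became 6, while converging pairs had 1 either way and tandem pairs 1 and 4.

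Thresholded peaks at tRNA genes were concentrated on arm 2R. Of the 100 tRNA genes there, 26 had one (26.0%, interval 17.7 to 35.7%), against 9 of the 195 on other arms (4.62%, 2.13 to 8.58%). Among protein-coding genes the shares were 11.7% on 2R and 12.4% on the other arms. Pooled summits were present at 74 of the 100 tRNA genes on 2R and at 107 of the 195 others (54.9%). The other arms had 2 of 26 tRNA genes with a thresholded peak (X), 1 of 41 (2L), 1 of 49 (3L) and 5 of 79 (3R), and chromosome 4 had no member. Of the 26 summits, 18 lay on 2R, and 14 of the 17 without a coding TSS nearby. Of the 26 genes on 2R with a thresholded peak, 25 were among the 80 clustered ones (31.2%) and 1 among the 20 isolated ones. Both replicates showed it. Among the strongest regions of replicate 2 alone, in the number of the thresholded list, 23.0% of tRNA genes on 2R and 3.59% of the others had a summit, and in replicate 3 alone 33.0% and 12.8%. For thresholded peaks that were also among the strongest of both replicates, the counts were 18 of 100 and 7 of 195. Neither the arm difference nor its source was tested.

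**Figure D3:**
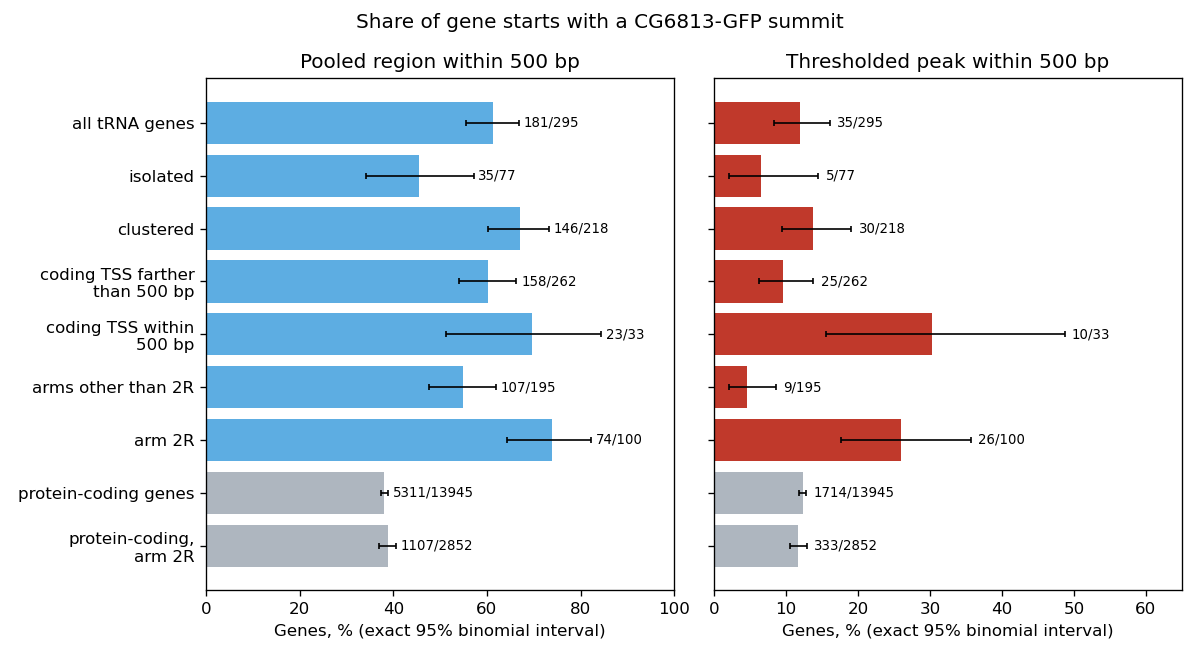
Share of gene starts with a summit within 500 bp in the pooled list (left) and the thresholded list (right), as bars with exact 95% binomial intervals and the counts beside them, for tRNA gene classes (coloured) and protein-coding genes (grey). Thresholded shares were 26.0% on 2R and 4.62% on the other arms for tRNA genes, beside 12.3% for protein-coding genes.

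Every isotype with more than 1 gene had members with a pooled summit, and 16 of 22 had a thresholded one. Pooled shares ran from 38.9% for Thr (7 of 18) to 6 of 6 for His, and the single selenocysteine gene, tRNA:SeC-TCA-1-1, had no summit in any list. Tyr (9 of 10), iMet (5 of 6), the initiator tRNA, and Val (12 of 15) followed His. Thresholded peaks were at 4 of 8 Trp, 3 of 8 Phe, 3 of 12 Gln and 4 of 20 Ser genes, and at none of the 17 Pro, 14 Asp, 7 Cys, 6 Met and 6 iMet genes. The classes are small and their summits shared: the 4 Trp genes rested on 3 nearest summits and the 3 Phe genes on 2. The peak at tRNA:Phe-GAA-1-2 was the RpL17 promoter peak. Isotypes also differed in arm. All 4 of these Trp genes were on 2R, where no Pro, Asp or Cys gene lay. Some Met and iMet genes were on 2R without a thresholded peak. The part of the arm in the isotype counts was not tested. Of the 5 pseudogene members, 2 had a pooled summit and 0 a thresholded one.

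**Figure D4:**
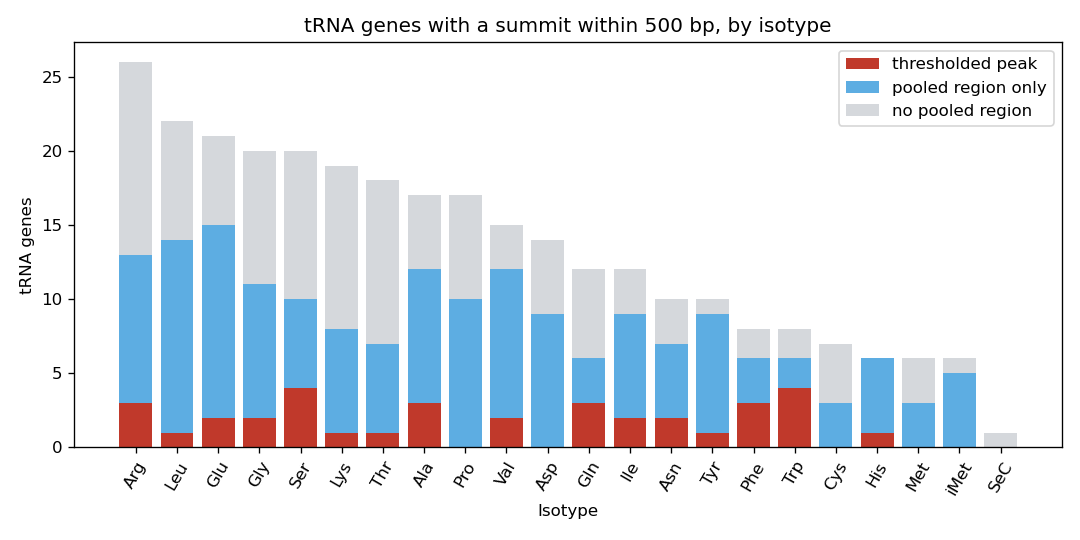
Number of tRNA genes per isotype (bars, sorted by gene number), split into genes with a thresholded peak, with a pooled region only and with no pooled region within 500 bp. Arg is the largest class with 26 genes, 13 of them with a pooled region, and Trp has 4 of 8 genes with a thresholded peak.

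Genes of identical sequence differed in their summits. The 295 genes had 100 distinct sequences, 57 of them held by 1 gene, and the most copied were held by 13. All 6 genes of the Trp-CCA-2 sequence had a pooled summit. Its signal was 235 at tRNA:Trp-CCA-2-2, 186 at tRNA:Trp-CCA-2-3 and tRNA:Trp-CCA-2-4, which share it, 199 at tRNA:Trp-CCA-2-5, 137 at tRNA:Trp-CCA-2-6 and 61.7 at the isolated tRNA:Trp-CCA-2-1 on 2L. Neither gene of the Trp-CCA-1 sequence had a pooled summit. Of the 8 Phe genes, which all share 1 sequence, tRNA:Phe-GAA-1-1 and tRNA:Phe-GAA-1-8 had no summit in any list, and the others had signals of 66.5 to 595. Of the 12 identical Asp-GTC genes, 8 had a pooled summit, with signals of 66.7 to 124, and neighbouring genes among them shared summits. Genes with a shared sequence had a pooled summit in 62.6% of cases and a thresholded one in 12.2%, and genes with a sequence of their own in 56.1 and 10.5%. The labels do not say how reads from identical copies were placed, and its part in these values was not tested.

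The strongest regions just below the threshold were at tRNA:Val-TAC-1-1 (3L, 5356242 to 5356661, signal 144, rank 5083), tRNA:Glu-TTC-1-6 (2R, 19727875 to 19728294, 140.0) and tRNA:Cys-GCA-1-3 (3L, 3096201 to 3096620, 139). Their summits had offsets of 109, -33 and 42 bp. Replicate 2 signals were 78.1, 101 and 78.8, and replicate 3 signals 64.5, 50.6 and 65.5.

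The B box letters were present in nearly all members, with or without a summit. GTTCNANNC was found on the gene's strand in 274 of 295 genes (92.9%) and in all 35 with a thresholded peak, against 1.63% of the first 73 bases of protein-coding genes. The A box letters TGGNNNAG were found in 56.9% of tRNA genes and in 19 of the 35, against 4.86% of those windows. A gene without these exact letters is not thereby shown to lack an A box. Within 100 bases of the thresholded summits, on either strand, the B box letters stood at 11 of 26 tRNA summits (42.3%) and at 6.44% of other thresholded summits. The A box letters stood at 7 of the 26 (26.9%) and at 23.4% of the others. The 26 were picked for lying near tRNA genes, nearly all of which hold the B box letters. Their B box share therefore follows partly from that choice and cannot show a preference for these letters. GAGAG was found at 4 of the 26 (15.4%), against 27.7% of the others, and the Dref sequence TATCGATA at 1 (3.85%), against 1.68%. The 7-mers CACAGTG and CAGTGTA, chosen after they were seen to be frequent at all thresholded summits, were each found at 1 of the 26 (3.85%), against 6.80 and 6.66% of the others. These matches describe the windows and were not tested.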

How the data were processed

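ChIP-seq peak lists of 2 replicates in 1 group were used. Per the listing deposited with the samples, the authors made the per-replicate and pooled lists as input to an irreproducible discovery rate step, with a control, and the thresholded list is its optimal set. Neither the labels nor that listing name the aligner, caller or cutoff. The signal value and the −log10 q-value per region are as deposited by the authors; signal ranked regions within a list, and the −log10 q-values were not used. Lists on dm3 were not used. Summits (region start plus offset) were set against BDGP6.54 gene starts (Ensembl release 115, dm6 coordinates) with Python 3.11.15, numpy 2.4.6 and scipy 1.17.1. The counting was tested on simulated data. Summits of different lists were matched within 200 bp. Shares have exact 95% binomial intervals, which treat genes as independent, and no hypothesis test was made. Depth is unknown. No per-sample column was left unused.

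The members and classes were chosen with earlier results of these data known. Described in full were the 12 strongest distinct thresholded summits at tRNA genes, the 5 strongest without a coding TSS within 500 bp (all among them), the 3 strongest regions below the threshold, the 3 clusters with most genes, the clusters with most summits and every isotype. Sequences were printed by the same ranking, leaving out arm 2R and sequences also found there, apart from those named as chosen later. Alternatives were windows of 200 and 1000 bp, distance to the whole gene, stronger peak subsets, each replicate alone, other cluster gaps and coding TSS rules, and members of unique sequence. The alternatives without pseudogenes, without 2R and without summits near coding TSSs, and those for neighbouring pairs, were added after the data were seen.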

Additional observations from a re-analysis of the deposited data

How the results depend on the processing

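Pooled summits were found at 125 to 218 tRNA genes with windows of 200 and 1000 bp and at 166 to 179 with 1 replicate left out. Counts followed the window: within 1000 bp, 54 genes had a thresholded summit, 9 isolated ones and 42 of those away from coding TSSs, and the median offset was 0 bp. Within 200 bp, 2 isolated genes and 6 near coding TSSs had one, and 85 genes had a summit in both replicates. Among thresholded peaks above the list's median signal, 13 genes had one, 10 clustered, 3 isolated, 6 near and 7 away from coding TSSs, with 11 distinct summits; the shares were 4.41% of tRNA genes and 6.90% of protein-coding genes. With clusters of starts within 1000 bp, 8 isolated genes had a thresholded summit. With 1 replicate left out, thresholded genes numbered 30 to 58, clustered ones 26 to 52, isolated 4 to 6, near coding TSSs 7 to 12, away 23 to 46, distinct summits 22 to 41, divergent pairs 2 to 6, converging pairs 1 and tandem pairs 1 to 4. The median signal was then 37.9 to 57.9, since each list has its own scale, and the median offset 12 to 21.5 bp. Without shared sequences, 57 genes were left, 6 thresholded and 32 pooled, with a median offset of -52.5 bp. Without 2R, 195 genes were left, 9 thresholded and 107 pooled. Where fewer genes or peaks enter, lower counts follow from that, and otherwise the cause was not tested. No paired analysis was possible because there is 1 group. Unknown depth limits every statement on missing summits.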

Other observations

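Other noncoding RNA genes had fewer pooled summits than tRNA genes. A pooled summit lay within 500 bp of 44 of 269 snoRNA genes (16.4%), 10 of 32 snRNA genes (31.2%) and 941 of 3261 genes annotated as ncRNA (28.9%), against 61.4% of tRNA genes. Thresholded shares were 7.06, 6.25 and 7.08%, against 11.9%. A run of TTTT, the polymerase III terminator, stood within 40 bases after 292 of 295 tRNA genes (99.0%) and after 48.7% of protein-coding genes. These are descriptions with no test.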
